A study of Homo sapiens with 12 samples.

Results

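The genes described here are 10 members of the human cytosolic heat shock system, taken from a table of 70116 Ensembl gene identifiers by matching each identifier, without its version, to the symbols HSF1, HSPA1A, HSPA1B, HSPA8, HSPH1, HSP90AA1, HSP90AB1, DNAJB1, HSPB1 and BAG3. All 10 had a row in the table. Only 7 of them carried counts that could be compared, and those 7 were among the 16197 genes tested.

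RNA was sequenced from MiaPaCa-2 cells, a long-established line from a human pancreatic tumour, that had received small interfering RNAs, short duplexes that direct the breakdown of a matching transcript. The 4 groups were siControl, siSLC25A1, siACLY and siACO1, with 3 numbered libraries each, and all 4 received an siRNA. SLC25A1 is the mitochondrial citrate carrier, ACLY makes acetyl-CoA from citrate in the cytosol, and ACO1 is cytosolic aconitase. The title of the study places the question in protection from ferroptosis under nutrient stress, but the labels give neither the medium at harvest, the time after transfection, nor the number and sequence of the siRNAs.

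Heat shock proteins are molecular chaperones that bind unfolded or misfolded proteins and help them to fold, to stay soluble or to be destroyed. HSP70 proteins work in a cycle of ATP hydrolysis that is started by J-domain cochaperones and ended by nucleotide exchange factors, and they hand a set of clients, many of them kinases and receptors, to HSP90. The transcription factor HSF1 is held inactive by these chaperones, is released when unfolded protein builds up, and binds heat shock elements, inverted repeats of the letters GAA, in front of chaperone genes. Tumour cells commonly depend on this system.

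Of the 10 genes, 3 could not be assessed. HSPA1A and HSPA1B, the main heat-inducible HSP70 genes, were listed at 0 in all 12 libraries, and HSF1 had between 0 and 5 counts. These rows do not show that the transcripts were absent, because genes that every cell uses were also listed at or near 0 beside them. Around HSPA1A and HSPA1B, within 2500000 bases of the start of HSPA1A on either side (chromosome 6, 29315464 to 34315464 of GRCh38), 121 of 179 protein-coding genes (67.6%) were at 0 in every library and 157 (87.7%) never reached 10 counts, against 21.6% and 37.3% of all 19855 protein-coding genes. Examples in that stretch, chosen after their values were seen, were the ribosomal protein gene RPS18 with at most 5 counts, the tubulin gene TUBB with at most 6 and the kinase subunit gene CSNK2B with 0. Near HSF1, DGAT1, SLC52A2 and CPSF1, the last of which encodes a subunit of the cleavage and polyadenylation machinery, had at most 2, 4 and 3 counts, while BOP1 next to them reached 11853. HSPA1A also shares 73.6% of its 31-base stretches with HSPA1B, so only reads from the remaining stretches can be assigned to one gene of the pair. The cause of the empty rows was not tested. No statement on HSF1, HSPA1A or HSPA1B expression in these cells can be made from the table, and they are left out of every count that follows.

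**Figure D1:**
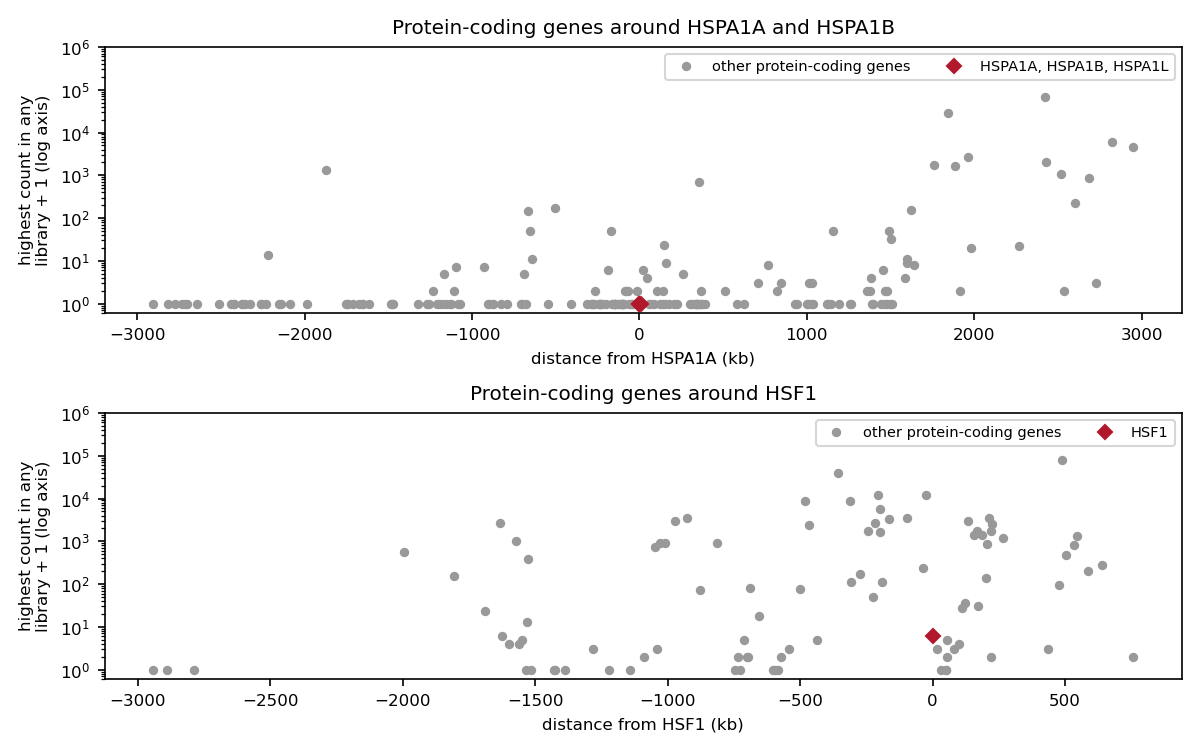
Highest count in any of the 12 libraries, plus 1, on a log axis, for protein-coding genes against their distance in kb from HSPA1A (top) and HSF1 (bottom). HSPA1A, HSPA1B and their neighbour HSPA1L sit at 0 counts inside a long stretch where 121 of 179 genes are at 0, and HSF1, with at most 5 counts, sits in a short run of nearly empty genes.

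The 7 tested members are protein-coding genes, with positions from GENCODE release 29 on GRCh38. HSPA8 lies on chromosome 11 (123057489 to 123063230, minus strand), HSPH1 on chromosome 13 (31134974 to 31162388, minus) and DNAJB1 on chromosome 19 (14514770 to 14529770, minus). BAG3 is on chromosome 10 (119651370 to 119677819, plus), HSP90AA1 on chromosome 14 (102080738 to 102139699, minus), HSP90AB1 on chromosome 6 (44246166 to 44253888, plus) and HSPB1 on chromosome 7 (76302544 to 76304295, plus). HSP90AB1 and HSP90AA1 share 35.7% and 25.6% of their 31-base stretches with genes elsewhere, mostly processed pseudogenes, and HSPA8 shares 19.2%. How the counting treated such reads is not given in the sources used here, so the counts of HSP90AB1 and HSP90AA1 are uncertain to that extent. The pseudogenes with the largest shared part held few reads, at most 111 counts for HSP90AB3P and 110 for HSP90AA2P, beside at least 43710 for HSP90AA1 and 69198 for HSP90AB1 in every library.

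The heat shock element is shown first, because it is what HSF1 reads. The letters GAANNTTCNNGAA, or TTCNNGAANNTTC on the other strand, give 3 alternating units of a heat shock element. They were searched in windows of 250 bases before to 50 bases after each RefSeq gene start (GRCh38.p14), of which 14 belong to 9 of the members, some with several starts. The match is found in 172 of all 35116 windows (0.49%) and in 3 of the 14 windows of the members. Capitals mark the repeat letters, and positions are counted from the gene start on the gene's strand.
HSPA8, -230 to -218, chr11:123062346-123062374: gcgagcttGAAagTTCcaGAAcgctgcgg
HSPA8, -55 to -43, chr11:123062171-123062199: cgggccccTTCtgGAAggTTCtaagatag
HSP90AA1, -88 to -76, chr14:102087112-102087140: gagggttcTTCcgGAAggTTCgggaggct
HSP90AB1, -165 to -153, chr6:44247770-44247798: ggagcaggTTCtgGAAgaTTCatgggctc
HSP90AB1, -112 to -100, chr6:44247823-44247851: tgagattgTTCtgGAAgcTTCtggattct

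A shorter form with 2 units, GAANNTTC or TTCNNGAA, which is also part of every longer match, occurs in 13.5% of all windows and in 8 of the 14 windows of the members. It is printed for DNAJB1 and HSPB1, which have no 3-unit match, and for the HSPA1A and HSPA1B pair, whose transcripts the table leaves empty. Neither form occurs in the HSPH1 and BAG3 windows, which says only that these letters are not there.
DNAJB1, -77 to -70, chr19:14518457-14518484: gggcggggcgGAAggTTCtggagggggc
DNAJB1, -47 to -40, chr19:14518427-14518454: gcgggctctgGAAgcTTCcgccggacgg
DNAJB1, 2 to 9, counted from another of its starts, chr19:14517919-14517946: cgctcggccaGAAgcTTCtagcatgtct
HSPB1, -182 to -175, chr7:76302481-76302508: cttaacgagaGAAggTTCcagatgaggg
HSPA1A, -106 to -99, chr6:31815427-31815454: gaaaaccctgGAAtaTTCccgacctggc
HSPA1B, -105 to -98, chr6:31827623-31827650: gaaacccctgGAAtaTTCccgacctggc

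Library totals ran from 24159424 to 43792811 counts, and replicates of a group correlated at 0.991 to 0.994 across genes, which are not independent replicates. Nothing in the labels says that replicates came from separate cultures, so p-values measure the spread between these libraries, which may be technical. Levels are given in CPM, counts scaled by TMM to a common library size. Calls are differences with an adjusted p under 0.05. Each siRNA lowered its own target: SLC25A1 was at 8.78% of siControl in siSLC25A1, ACLY at 7.25% in siACLY and ACO1 at 3.75% in siACO1. ACO1 was also called higher in siACLY, at 112.2% of siControl (adjusted p 0.0239). No other target was called outside its own knockdown. The epithelial keratins KRT8 and KRT18 were high in every library (at least 1260 and 750 CPM), EPCAM and CDH1 were at most 0.0776 and 0.0771 CPM, VIM was at least 3470 CPM, and the leukocyte markers PTPRC and CD3E were at 0 throughout. Marker sums differed between the groups. The summed level of the 8 epithelial carcinoma markers, nearly all of it KRT8 and KRT18, was 3880 to 4030 CPM in siControl, 3410 to 3740 in siSLC25A1, 4100 to 4200 in siACLY and 2330 to 2450 in siACO1, while SOX9 stayed between 248 and 276 CPM in all libraries. In the same group order KRT19 was at 85.8 to 91.2, 115 to 124, 139 to 143 and 47.2 to 56.5 CPM. MUC1 was at 18.9 to 21.4, 12.1 to 15.7, 9.45 to 11.1 and 11.5 to 13.1 CPM. KRT19 in siSLC25A1 and MUC1 in siACLY thus went against the sum. The 4 mesenchymal markers, chiefly VIM, summed to 3570 to 3720 CPM in siControl, 3920 to 3990 in siSLC25A1, 4370 to 4910 in siACLY and 3540 to 3900 in siACO1. The 5 fibroblast genes summed to 875 to 895 CPM in siControl, 784 to 844 in siSLC25A1, 826 to 876 in siACLY and 1550 to 1590 in siACO1, nearly all of it COL1A2, with COL1A1 at most 0.25 CPM. The part of these differences in the results below was not tested, and in bulk RNA fewer cells of a type and less RNA per cell cannot be told apart.

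In control cells the chaperone transcripts spanned a wide range of levels. Per kilobase of exon, HSP90AB1 was at 1103 ± 7.81 CPM (SD, n = 3), HSPA8 at 559.2 ± 9.89, HSP90AA1 at 466.6 ± 4.72 and HSPB1 at 333.3 ± 23.7. DNAJB1 (87.3 ± 3.55), HSPH1 (50.25 ± 1.22) and BAG3 (46.35 ± 0.826) were lower. The libraries of neighbours in this order did not overlap, HSPH1 and BAG3 being the closest pair. The 7 members together took 0.961% to 0.974% of all counts in the siControl libraries. That share was 0.851% to 0.925% in siSLC25A1, 0.950% to 0.993% in siACLY and 0.863% to 0.872% in siACO1.

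No general rise of cytosolic chaperones was seen in any knockdown. In siSLC25A1 3 of the 7 tested members were called, all lower (HSP90AA1, HSP90AB1 and BAG3), while 19.6% of all tested genes were called, 10.3% as higher and 9.27% as lower. SiACLY had 4 called members, with HSPA8, HSPH1 and BAG3 lower and HSP90AB1 higher, where 36.7% of all tested genes were called, 18.4% as higher and 18.3% as lower. SiACO1 had 5 called members, all lower (HSPA8, HSPH1, HSP90AA1, HSP90AB1 and DNAJB1), where 37.1% of all genes were called, 17.8% as higher and 19.3% as lower. The median log2 fold change of the 7 was -0.10 in siSLC25A1, -0.05 in siACLY and -0.19 in siACO1, with medians over all tested genes of -0.0045, 0.0077 and 0.0063. The 3 comparisons share the siControl libraries. Every called change was small, between 79.1% and 107.6% of the control level.

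**Figure D2:**
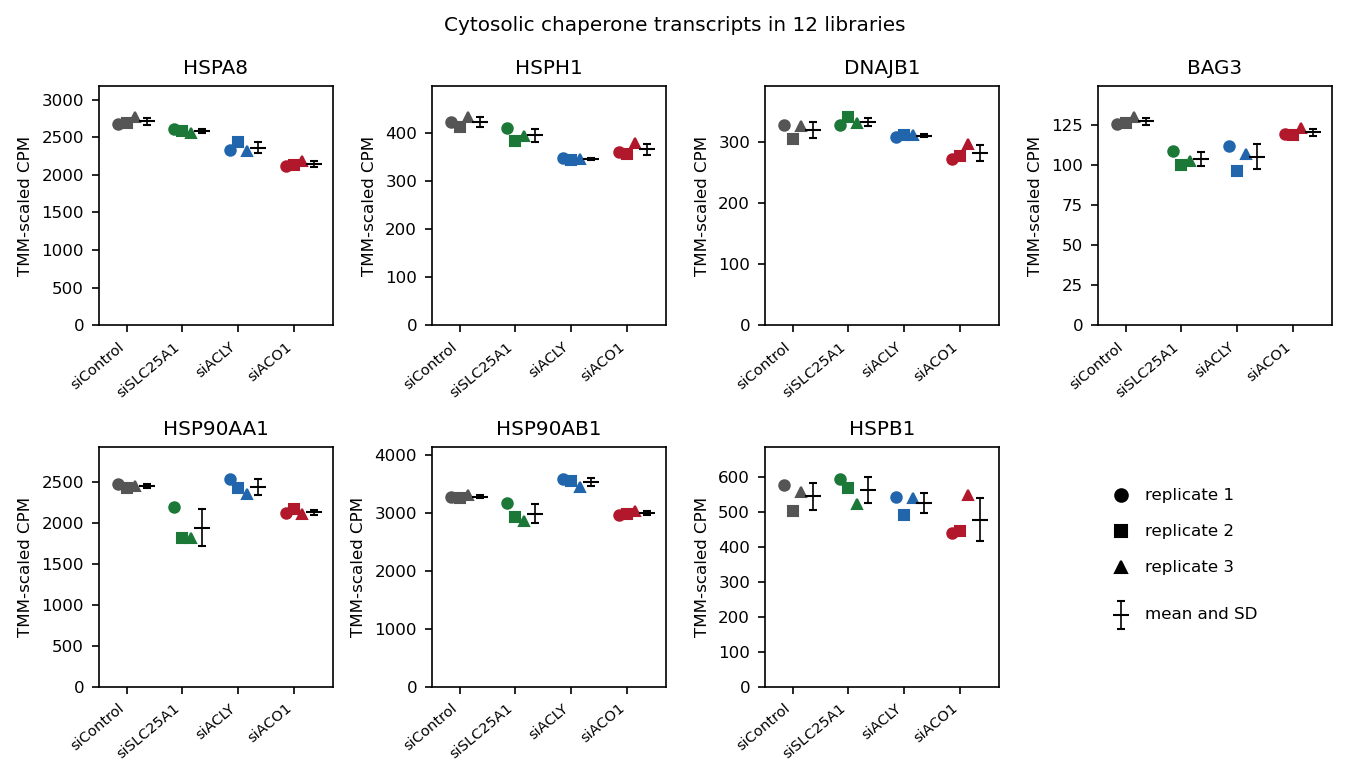
TMM-scaled CPM of the 7 tested members in each library (marker shape gives the replicate), with the mean and SD of each group beside the points; every axis starts at 0. HSPA8 and HSPH1 sit below siControl in siACLY and siACO1, and HSP90AA1 is at 1806 and 1812 CPM in siSLC25A1 replicates 2 and 3.

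HSPA8 encodes HSC70, the constitutive cytosolic HSP70. It measured 2676, 2693 and 2766 CPM in the 3 siControl libraries, 2611, 2579 and 2552 in siSLC25A1, 2334, 2442 and 2311 in siACLY, and 2112, 2136 and 2188 in siACO1. The groups did not overlap and stepped down in that order. Against siControl, HSPA8 fell to 79.1% in siACO1 (-0.34 on the log2 scale, SE 0.04, adjusted p 2.66e-08) and to 87.1% in siACLY (-0.20, SE 0.04, adjusted p 1.04e-04). In siSLC25A1 it was at 95.2%, which did not pass (-0.07, 95% interval -0.15 to 0.01, adjusted p 0.193). The knockdowns also differed from each other. HSPA8 was 1.203 times as high in siSLC25A1 as in siACO1 (adjusted p 1.16e-06), 1.092 times as high in siSLC25A1 as in siACLY (0.00889) and 1.101 times as high in siACLY as in siACO1 (0.00349).

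HSPH1 encodes HSP110, a relative of HSP70 that acts as its nucleotide exchange factor and helps to dissolve aggregates. Its levels were 422, 411 and 432 CPM in siControl, 409, 382 and 392 in siSLC25A1, 348, 342 and 345 in siACLY, and 360, 356 and 378 in siACO1. All 6 libraries of siACLY and siACO1 were below all 6 of siControl and siSLC25A1. HSPH1 fell to 81.9% of control in siACLY (-0.29 on the log2 scale, SE 0.04, adjusted p 9.69e-07) and to 86.5% in siACO1 (-0.21, SE 0.04, adjusted p 9.31e-05). In siSLC25A1 it was at 93.6% (adjusted p 0.0889), and it passed the threshold without siSLC25A1 replicate 1 (log2 fold change -0.12, adjusted p 0.0379) or without siACO1 replicate 3 (-0.09, adjusted p 0.0225) and in a fit of the 2 groups alone (-0.10, adjusted p 0.0424). SiACLY and siACO1 differed by -0.08 (adjusted p 0.104). HSPH1 was higher in siSLC25A1 than in siACLY by 0.19 (adjusted p 2.85e-04) and than in siACO1 by 0.11 (0.021). The latter call was lost without siSLC25A1 replicate 1 (0.09, adjusted p 0.0951), siACO1 replicate 1 (0.10, 0.0736) or siACO1 replicate 2 (0.10, 0.0913), with library totals alone (0.07, 0.127), with no filter on low counts (0.11, 0.0868) and in a fit of the 2 groups alone (0.11, 0.0805).

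DNAJB1 encodes HSP40, the J-domain protein that delivers substrates to HSP70 and recruits it in the feedback on HSF1. DNAJB1 measured 329, 306 and 327 CPM in siControl, 328, 341 and 332 in siSLC25A1, 309, 311 and 313 in siACLY, and 272, 277 and 297 in siACO1. Only the siACO1 libraries were all below the control range. DNAJB1 was at 88.0% of control there (-0.18 on the log2 scale, SE 0.04, adjusted p 6.51e-04). It did not pass in siSLC25A1 (0.06, 95% interval -0.03 to 0.14, adjusted p 0.365) or in siACLY (-0.04, -0.13 to 0.04, adjusted p 0.432). The level in siACO1 was also lower than in the other two knockdowns: siSLC25A1 exceeded it by 0.24 (adjusted p 1.94e-05) and siACLY by 0.14 (0.0066). The second difference did not pass without siACO1 replicate 1 (0.11, adjusted p 0.0581).

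BAG3 encodes a cochaperone that releases substrate from HSP70 and passes it to small heat shock proteins and to autophagy, and it is a well-known HSF1 target. Its 3 siControl libraries were at 126, 126 and 130 CPM. The siSLC25A1 libraries were at 109, 99.8 and 103 CPM, those of siACLY at 112, 96.6 and 107, and those of siACO1 at 120, 119 and 123. All 6 libraries of siSLC25A1 and siACLY were below those of siControl and siACO1, whereas the siACO1 group was the lowest for HSPA8. It fell to 81.5% of control in siSLC25A1 (-0.29 on the log2 scale, SE 0.05, adjusted p 3.9e-05) and to 82.7% in siACLY (-0.27, SE 0.05, adjusted p 3.9e-05). In siACO1 it was at 94.7% (-0.08, 95% interval -0.18 to 0.02, adjusted p 0.212), although the libraries did not overlap with siControl. BAG3 was lower than in siACO1 in both siSLC25A1 (-0.22, adjusted p 5.68e-04) and siACLY (-0.20, adjusted p 0.00147). Between siSLC25A1 and siACLY the difference was -0.02 (95% interval -0.12 to 0.08, adjusted p 0.779).

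HSP90AA1 encodes the stress-inducible cytosolic HSP90 and HSP90AB1 the constitutive one. HSP90AA1 was at 2475, 2425 and 2446 CPM in siControl, 2193, 1806 and 1812 in siSLC25A1, 2534, 2425 and 2343 in siACLY, and 2111, 2163 and 2105 in siACO1. The siSLC25A1 and siACO1 libraries were all below siControl, and siACLY overlapped it. The SD within siSLC25A1 was 11.5% of the mean, against 1.01% in siControl, because replicate 1 lay between the other two and the controls. HSP90AA1 fell to 79.1% of control in siSLC25A1 (-0.34 on the log2 scale, SE 0.05, adjusted p 7.58e-05), and without siSLC25A1 replicate 1 the log2 fold change was -0.44. In siACO1 it was at 86.8% (-0.20, SE 0.05, adjusted p 0.00461), a call that was lost without siACO1 replicate 3 (-0.20, adjusted p 0.0852). In siACLY the difference was -0.0086 (95% interval -0.12 to 0.10, adjusted p 0.924). HSP90AA1 was lower in siSLC25A1 than in siACLY by 0.33 on the log2 scale (adjusted p 4.85e-05). SiACLY exceeded siACO1 by 0.20 (adjusted p 0.00551), which did not pass without siACO1 replicate 3 (0.19, adjusted p 0.0998). The difference between siSLC25A1 and siACO1 was -0.13 and did not pass (adjusted p 0.0511), but it did without siSLC25A1 replicate 1 (-0.23, adjusted p 2.11e-05) with library totals alone (-0.18, 0.0192), with no filter on low counts (-0.14, 0.00498) and with at least 10 counts in every library (-0.14, 0.0353). With the replicate number as a block, whose numbers did not pair the libraries, it was -0.14 (0.0209).

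HSP90AB1 measured 3286, 3265 and 3311 CPM in siControl, 3176, 2931 and 2868 in siSLC25A1, 3597, 3556 and 3456 in siACLY, and 2976, 2995 and 3036 in siACO1. It was the single member with a called rise, and the 3 siACLY libraries were above all others. That rise, to 107.6% of control (0.11 on the log2 scale, SE 0.04, adjusted p 0.0385), is at the edge of the threshold: leaving out any one siControl or siACLY library gave 0.09 to 0.12 with adjusted p-values of 0.0549 to 0.171, and median-of-ratios size factors gave 0.10 (0.0558). It was lost in 12 of 19 alternatives in all. HSP90AB1 was at 91.0% of control in siSLC25A1 (-0.14, SE 0.04, adjusted p 0.0151) and at 91.3% in siACO1 (-0.13, SE 0.04, adjusted p 0.0104). The first of these calls was lost without siControl replicate 1 (-0.14, adjusted p 0.0531) or 3 (-0.13, 0.0687) and without siSLC25A1 replicate 2 (-0.12, 0.0769) or 3 (-0.11, 0.131), and the second with library totals alone (-0.08, 0.0727). The contrasts that leave the controls out were firmer: siACLY exceeded siACO1 by 0.24 (adjusted p 1.75e-05) and siSLC25A1 was below siACLY by 0.24 (log2 fold change -0.24, adjusted p 2.16e-05), and neither call was lost in any of the alternatives tried. SiSLC25A1 and siACO1 differed by -0.0051 (95% interval -0.09 to 0.08, adjusted p 0.935).

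**Figure D3:**
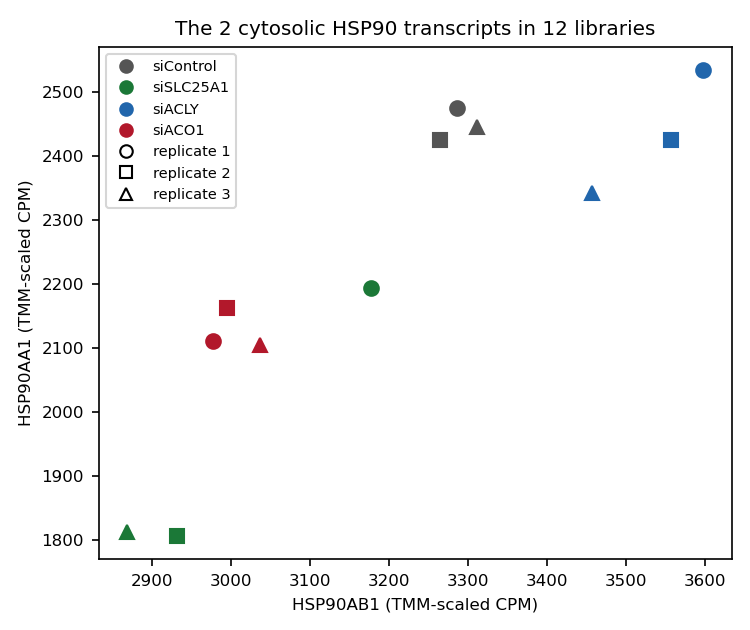
HSP90AA1 against HSP90AB1, both in TMM-scaled CPM, in the 12 libraries, with colour for the group and marker shape for the replicate; the axes do not start at 0. The siACLY libraries lie to the right of siControl at similar HSP90AA1, and siSLC25A1 replicates 2 and 3 lie lowest on the HSP90AA1 axis, at 1806 and 1812 CPM.

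The balance of the 2 HSP90 transcripts was described by the ratio of their CPM in each library. It was 0.745 ± 0.00744 (SD, n = 3) in siControl, 0.646 ± 0.0392 in siSLC25A1, 0.688 ± 0.0144 in siACLY and 0.708 ± 0.0144 in siACO1. In each knockdown all 3 libraries were below all 3 controls, the highest being 0.722 in siACO1 and the lowest control 0.739. A two-sided exact permutation test gave p = 0.1 in each of the 3 comparisons (0.1 after Benjamini-Hochberg adjustment over them), which is the smallest value that 3 against 3 libraries allow.

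HSPB1 encodes HSP27, a small heat shock protein that holds unfolded clients for HSP70 and binds actin. It was at 576, 501 and 556 CPM in siControl, 594, 568 and 522 in siSLC25A1, 541, 491 and 541 in siACLY, and 440, 445 and 548 in siACO1. The groups overlapped, and the siACO1 SD of 60.8 CPM came from replicate 3, the one siACO1 library inside the control range. HSPB1 was not called in siSLC25A1 (log2 fold change 0.04, 95% interval -0.15 to 0.24, adjusted p 0.787), siACLY (-0.05, -0.25 to 0.14, 0.675) or siACO1 (-0.19, -0.38 to 0.01, 0.124). Without siACO1 replicate 3, its value in siACO1 was -0.30 and passed the threshold (adjusted p 0.00318), and so did the values without siControl replicate 2 (-0.25, 0.0493) and without a filter on low counts (-0.19, 0.00686). The difference between siSLC25A1 and siACO1 was 0.23 (adjusted p 0.0554), and 0.35 without siACO1 replicate 3 (0.00107). It also passed without siControl replicate 1 (0.23, adjusted p 0.0466) or 2 (0.23, 0.0311), siSLC25A1 replicate 3 (0.29, 0.0289) or siACLY replicate 2 (0.24, 0.0406), with the replicate block (0.24, 0.0363), in DESeq2 (0.24, 0.0434), with no filter on low counts (0.23, 9.71e-04) and in a fit of the 2 groups alone (0.23, 0.0275). Without siACO1 replicate 3 the difference between siACLY and siACO1, 0.13 in all libraries (adjusted p 0.261), was 0.24 (0.0109).

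**Figure D4:**
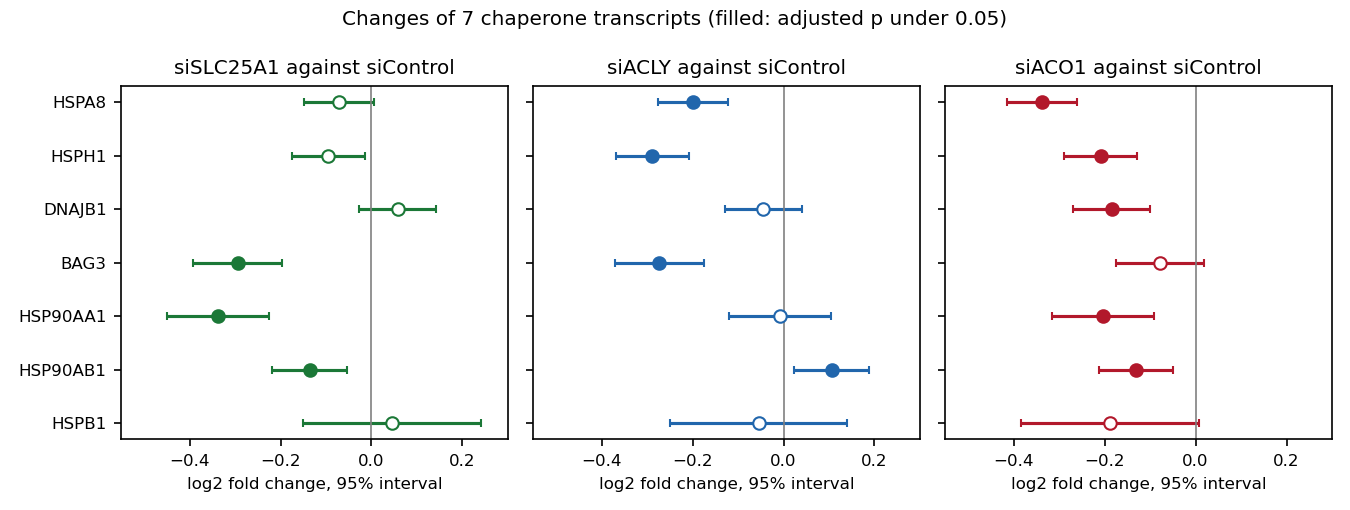
Log2 fold change against siControl with its unadjusted 95% interval for the 7 tested members in each knockdown; filled points had an adjusted p under 0.05. HSPA8 and HSPH1 are filled in siACLY and siACO1, BAG3 in siSLC25A1 and siACLY, DNAJB1 in siACO1 alone, and HSPB1 in none.

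Set directly against each other, the knockdowns differed in 4 of the 7 members between siSLC25A1 and siACLY, 2 higher and 2 lower in siSLC25A1 (33.8% of all tested genes, 17.5% higher and 16.3% lower). Between siSLC25A1 and siACO1 4 differed, 3 higher and 1 lower in siSLC25A1 (42.1%, with 21.8% higher and 20.3% lower). Between siACLY and siACO1 5 differed, 4 higher and 1 lower in siACLY (42.1%, with 21.4% higher and 20.7% lower). With library totals alone the split between siSLC25A1 and siACO1 was 2 higher and 2 lower. HSPA8 was called in all 3 contrasts. SiSLC25A1 had more HSPA8 and HSPH1 but less HSP90AA1 and HSP90AB1 than siACLY, so these 2 pairs of transcripts differed in opposite directions between the groups. Of the 8 other tested HSP70 and HSP110 genes, 1 was called higher in siSLC25A1 than in siACLY and 7 were not called. DNAJB1 was higher in siSLC25A1 than in siACLY by 0.10 and just missed the threshold (adjusted p 0.0561), and it passed in 5 of 19 alternatives: without siACO1 replicate 1 (0.11, adjusted p 0.048) or replicate 3 (0.11, 0.00721), with median-of-ratios size factors (0.11, 0.0422), in DESeq2 (0.11, 0.0402) and in a fit of the 2 groups alone (0.10, 0.0191).

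The wider network was read from 9 lists with 83 genes, of which 70 were tested. The lists hold other HSP70 and HSP110 genes, J-domain cochaperones, nucleotide exchange factors, HSP90 cochaperones, small heat shock proteins, the chaperonin TRiC with prefoldin, mitochondrial chaperones, other heat shock factors, and further heat-inducible targets. In siSLC25A1 5 of the 70 were called higher and 9 lower, with a median log2 fold change of -0.02, where 19.6% of all tested genes were called. These 14 calls became 9 without siSLC25A1 replicate 2. Over all tested genes the calls then went from 1672 higher and 1501 lower to 1294 higher and 1153 lower. In siACLY 12 were higher and 23 lower (median -0.06), where 18.4% of all tested genes were called higher and 18.3% lower. In siACO1 10 were higher and 35 lower (median -0.14), where 17.8% of all tested genes were called higher and 19.3% lower. With library totals alone the split was 16 higher and 18 lower in siACLY and 12 higher and 26 lower in siACO1; over all tested genes the share of higher calls then moved from 50.1% to 61.0% and from 47.9% to 59.5%. Among the genes not tested, CCT8 and PFDN5, of the TRiC and prefoldin complexes, had at most 1 count each and CHORDC1 and HSPA1L had none, so further rows of this network were empty.

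**Figure D5:**
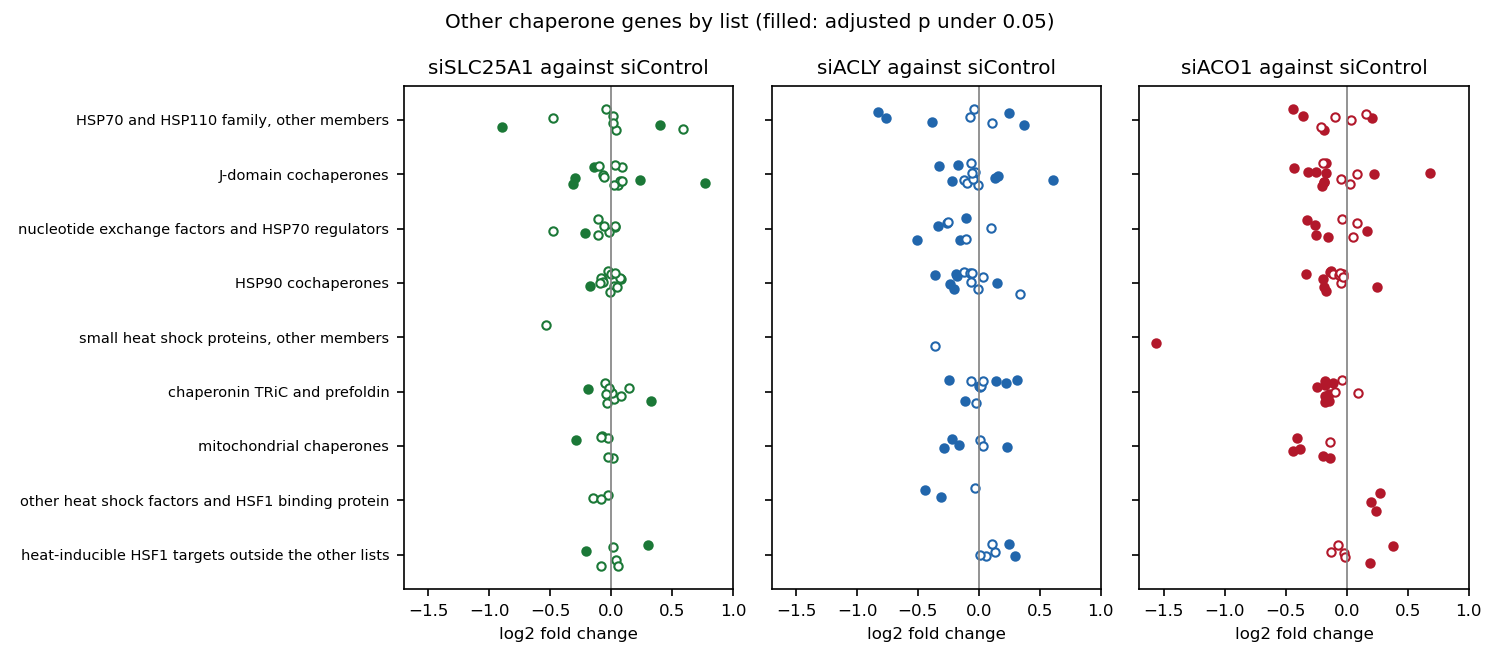
Log2 fold change against siControl of the 70 tested list genes in each knockdown, 1 point a gene, with vertical jitter inside each list; filled points had an adjusted p under 0.05. In siACO1 the TRiC and prefoldin genes (8 of 11 called lower) and the mitochondrial chaperones (5 of 6) lie mostly left of 0. HSF2, HSF4 and HSBP1 lie right of it. Of all tested genes 19.3% were called lower and 17.8% higher in siACO1.

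In siACO1 most tested genes of 2 further folding machines, TRiC with prefoldin and the mitochondrial chaperones, were called lower. Among all tested genes 19.3% were called lower and 17.8% higher in siACO1. Of the 11 tested genes of TRiC, the ring that folds actin and tubulin, and its helper prefoldin, 8 were called lower and none higher, with a median of -0.15. CCT2 fell from 319 ± 6.43 to 269 ± 13.3 CPM (-0.25 on the log2 scale, SE 0.04, adjusted p 2.79e-05), and TCP1 fell by 0.18 (adjusted p 0.00132). TCP1 was also lower in siSLC25A1 (-0.19, adjusted p 0.00233) and siACLY (-0.25, adjusted p 3.88e-05), while the prefoldin subunit gene PFDN1 was higher there, by 0.32 (9.8e-06) and 0.31 (6.26e-06). These were the 2 calls among the 11 in siSLC25A1, where 19.6% of all tested genes were called. SiACLY had 3 higher and 2 lower, where 18.4% of all tested genes were called higher and 18.3% lower.

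Mitochondrial chaperones were called lower in 5 of 6 cases in siACO1, beside 19.3% of all tested genes, with a median of -0.29. TRAP1, the mitochondrial HSP90, fell from 212 ± 2.90 to 156 ± 2.53 CPM (-0.44, SE 0.04, adjusted p 5.58e-10), and CLPB, a mitochondrial disaggregase, from 41.0 ± 1.48 to 30.8 ± 1.28 CPM (-0.41, SE 0.06, adjusted p 1.24e-06). TRAP1 was lower by 0.29 in both siSLC25A1 (log2 fold change -0.29, adjusted p 3.27e-06) and siACLY (-0.29, adjusted p 1.19e-06). CLPB went the other way in siACLY (0.23, adjusted p 0.00138).

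J-domain genes were called lower in 8 and higher in 2 of 14 cases in siACO1, and in 3 and 3 in siACLY and 3 and 2 in siSLC25A1. Over all tested genes the shares called lower and higher were 19.3% and 17.8% in siACO1, 18.3% and 18.4% in siACLY, and 9.27% and 10.3% in siSLC25A1. DNAJA1, a farnesylated cytosolic partner of HSP70, fell from 229 ± 5.32 to 184 ± 5.13 CPM in siSLC25A1 (-0.31, SE 0.04, adjusted p 2.08e-06) and to 182 ± 1.92 in siACLY (-0.33, adjusted p 2.38e-07). DNAJC2, which acts at the ribosome, fell by 0.14 in siSLC25A1 (adjusted p 0.0364), by 0.22 in siACLY (adjusted p 5.74e-04) and by 0.43 in siACO1 (adjusted p 3.28e-08). DNAJB5 rose from 3.18 ± 0.537 to 5.45 ± 0.399 CPM in siSLC25A1 (0.77, SE 0.15, adjusted p 4.83e-04) and to 5.15 ± 0.970 in siACO1 (0.68, adjusted p 7.33e-04).

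Among the exchange factors and regulators of HSP70, 5 of 8 were called lower in siACLY and none higher, and 4 were lower and 1 higher in siACO1. The shares of all tested genes called lower and higher were 18.3% and 18.4% in siACLY, and 19.3% and 17.8% in siACO1. BAG2 had its largest fall in siACLY, from 62.4 ± 2.29 to 43.8 ± 2.44 CPM (-0.51, SE 0.05, adjusted p 5.64e-09), and was the single call in siSLC25A1 (-0.21, adjusted p 0.00316). BAG1 fell by 0.33 in siACLY (adjusted p 2.36e-05) and by 0.33 in siACO1 (2.92e-05), and BAG5 by 0.26 in siACO1 (2.91e-04). BAG6, which is among the 8 genes counted here, was tested from only 13 to 49 counts a library. It lies in the nearly empty stretch of chromosome 6, and its values are not interpreted.

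Of 13 HSP90 cochaperone genes, 1 was called in siSLC25A1, 6 in siACLY and 7 in siACO1, beside 19.6%, 36.7% and 37.1% of all tested genes. FKBP4, an immunophilin of steroid receptor complexes, fell from 382 ± 2.52 to 298 ± 7.30 CPM in siACLY (-0.36, SE 0.04, adjusted p 5.81e-08), and STIP1, the adaptor between HSP70 and HSP90, by 0.23 (adjusted p 6.18e-05). CDC37, which brings kinases to HSP90, fell from 289 ± 8.36 to 229 ± 11.6 CPM in siACO1 (-0.33, SE 0.04, adjusted p 1.97e-07). FKBP5 rose by 0.25 in siACO1 (adjusted p 3.95e-05), the one called rise in that list there. UNC45A, a myosin chaperone, was the one call in siSLC25A1 (-0.18, adjusted p 0.00628), and it did not pass without siSLC25A1 replicate 2 (-0.14, adjusted p 0.0588).

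Other HSP70 relatives did not follow a common direction. HSPA13, an HSP70 of the microsomes, rose from 110 ± 2.71 to 145 ± 9.64 CPM in siSLC25A1 (0.40, SE 0.05, adjusted p 1.71e-07), to 142 ± 5.13 in siACLY (0.37, adjusted p 2.17e-07) and to 126 ± 3.00 in siACO1 (0.20, adjusted p 8.52e-04). HSPA14, a ribosome-associated HSP70, fell by 0.38 in siACLY (adjusted p 7.83e-06), and HSPA12A by 0.36 in siACO1 (adjusted p 0.00135). HSPA6, an HSP70 gene that is silent without strong stress and carries a 3-unit heat shock element, was at 0.376 ± 0.0623 CPM in siControl and at 0.579 ± 0.202, 0.411 ± 0.0826 and 0.417 ± 0.132 CPM in siSLC25A1, siACLY and siACO1. None of its differences passed (adjusted p 0.341, 0.872 and 0.807), but with only 7 to 18 counts a library a change could have been missed. HSPA6 was singled out for that known silence. Of the 7 other small heat shock protein genes only HSPB6 was tested, with 4 to 25 counts a library, and it was called lower in siACO1 (0.239 ± 0.117 against 0.698 ± 0.0879 CPM, log2 fold change -1.56, adjusted p 0.00273), HSPB6 being named after its value was seen.

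The list of other heat shock factors and HSF1 binding protein had 3 tested genes, HSF2, HSF4 and HSBP1. All 3 were called higher in siACO1: HSF2 by 0.28 (25.9 ± 0.681 against 21.4 ± 1.66 CPM, adjusted p 0.00224), HSBP1, which encodes a protein that binds HSF1 trimers, by 0.24 (adjusted p 6.61e-04) and HSF4 by 0.20 (0.0292), HSF4 being named after its value was seen. In siACLY HSF4 was lower (-0.44, adjusted p 2.41e-05), as was HSBP1 (-0.32, adjusted p 3.9e-05), and none of the 3 was called in siSLC25A1. Of all tested genes, 17.8% were called higher in siACO1, 18.3% lower in siACLY and 19.6% in either direction in siSLC25A1. Of the 6 further heat-inducible targets, 1 was called higher and 1 lower in siSLC25A1, and 2 were called higher in each of siACLY and siACO1. Over all tested genes 19.6% were called in siSLC25A1, and 18.4% and 17.8% were called higher in siACLY and siACO1. SERPINH1, the collagen chaperone of the endoplasmic reticulum, rose from 272 ± 3.80 to 355 ± 17.5 CPM in siACO1 (0.38, SE 0.04, adjusted p 7.94e-09), and the polyubiquitin gene UBB by 0.19 (8.39e-04). ZFAND2A was higher in siSLC25A1 (0.30, adjusted p 0.027) and siACLY (0.29, 0.0161), DEDD2 lower in siSLC25A1 (-0.21, 0.0336) and IER5 higher in siACLY (0.24, 0.0226). These 4 calls were each lost when single libraries were left out. ZFAND2A in siSLC25A1 was lost without siControl replicate 2 (0.24, adjusted p 0.138) or 3 (0.29, 0.0772) or siSLC25A1 replicate 2 (0.16, 0.295), and in siACLY without siControl replicate 2 (0.24, 0.0999) or 3 (0.28, 0.0536) or siACLY replicate 3 (0.24, 0.0821). DEDD2 was lost without any one library of the 2 groups (-0.23 to -0.18, adjusted p 0.0526 to 0.117) and with no filter on low counts (-0.22, 0.064), and IER5 without siControl replicate 2 (0.20, 0.117) or 3 (0.21, 0.0915) or siACLY replicate 1 (0.24, 0.0693) or 2 (0.23, 0.0665).

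Genes with a 3-unit heat shock element in their window did not all go the same way. For comparison, 19.3% of all tested genes were called lower and 17.8% higher in siACO1. The same shares were 18.3% and 18.4% in siACLY, and 9.27% and 10.3% in siSLC25A1. The list genes with such a match were HSPA6, DNAJA1, DNAJB6, HSPD1, SERPINH1 and CHORDC1, beside HSPA8, HSP90AA1 and HSP90AB1, and CHORDC1 was listed at 0. In siACO1 HSPA8, HSP90AA1, HSP90AB1, DNAJA1 (-0.17, adjusted p 0.00158), DNAJB6 (-0.21, adjusted p 2.68e-04) and HSPD1 (-0.19, adjusted p 2.12e-04) were lower, SERPINH1 was higher and HSPA6 was not called. In siACLY HSPA8, DNAJA1, DNAJB6 (-0.17, adjusted p 0.00181) and HSPD1 (-0.16, adjusted p 0.00139) were lower and HSP90AB1 was higher, while HSP90AA1, SERPINH1 and HSPA6 were not called. In siSLC25A1 HSP90AA1, HSP90AB1 and DNAJA1 were lower, and HSPA8, DNAJB6, HSPD1, SERPINH1 and HSPA6 were not called. DNAJA1, DNAJB6 and HSPD1 are given here for their matches.

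The genes whose levels across the 12 libraries were most like those of 2 heat-inducible members, HSPH1 and DNAJB1, were sought outside the members. Only the 5 nearest are listed for each, so the lists cannot show whether chaperones varied together. Likeness was Pearson's r of log2 CPM over 12 libraries in 4 groups, given as a description of these libraries, which share scaling and depth. For HSPH1 the 5 nearest were POLRMT (0.979), ENO1 (0.975), NCLN (0.971), CXXC1 (0.970) and SLC25A23 (0.964). For DNAJB1 they were TST (0.963), SLC3A2 (0.955), TRMT1 (0.954), HYAL2 (0.952) and TMSB10 (0.950). Among the other tested members, the highest r was 0.768 for HSPH1 (with HSPA8) and 0.839 for DNAJB1 (with HSPB1). ENO1, which encodes the glycolytic enzyme enolase, was at 3559, 3344, 2907 and 3016 CPM on average in siControl, siSLC25A1, siACLY and siACO1. HSPH1 had the same order of groups, as the choice of ENO1 by its likeness implies.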

How the data were processed

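The authors deposited 1 table of whole-number read counts per gene, not normalized, with 1 column for each of the 12 libraries, per the file headers and the values. CASAVA, FastQC, Trim Galore, STAR 2.7.0e and DESeq2, and the builds GRCh38 and GRCm39, are named with no role per the submitters' processing notes; the counting tool, annotation release and strand setting are not given in the sources used here. Columns were tied to samples by the column name in each description. A table of gene names matched 62700 of the 70116 identifiers (89.4%).

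Genes were kept with edgeR's filterByExpr defaults, scaled by TMM and fitted with a robust quasi-likelihood model of 4 groups without a block (edgeR 4.0.16, R 4.3.3; 8 residual degrees of freedom; common biological coefficient of variation 4.89%). Each of 6 comparisons was tested two-sided with glmQLFTest, and p-values were adjusted by Benjamini-Hochberg over all 16197 genes; every adjusted p in the text is from this fit unless another setting is named. The scripts were tested on simulated data. Levels per kilobase used the union of GENCODE 29 exons. Named genes are the members, the 3 targets, the 2 called list genes with the largest change in each list and knockdown at 5 CPM or more, and the 5 genes most like HSPH1 and DNAJB1. The members and lists were chosen with earlier results of these data known. Other genes in the text say why they were named.

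Same-numbered libraries did not deviate together (correlations of deviations from group means -0.034 to 0.067 in 18 pairs), so the replicate block was an alternative only. Other alternatives were size factors, library totals, DESeq2 1.42.0, filters, fits of 2 groups, a threshold of 0.01 and each library left out.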

Additional observations from a re-analysis of the deposited data

How the results depend on the processing

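Of 798 member values under the alternatives, 735 kept their direction and their side of the threshold, 26 lost a call, 26 gained one and 11 changed sign, each of the last a difference that was not called. Leaving out siACO1 replicate 3 also raised the calls over all tested genes in comparisons without siACO1. They went from 3173 to 4131 in siSLC25A1 and from 5944 to 6736 in siACLY, each against siControl. The TMM scaling factor of that library was 0.995, beside 1.029 and 1.028 in siACO1 replicates 1 and 2. The cause of these changes was not tested. HSPA8, HSPH1 and BAG3 in siACLY, HSPA8, HSPH1 and DNAJB1 in siACO1, and HSP90AA1 and BAG3 in siSLC25A1 were called in all 19 alternatives. The rise of HSP90AB1 in siACLY was lost in 12 of 19.

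The log2 fold changes that changed sign were HSPB1 in siSLC25A1 (-0.0118 to 0.0939 with 1 library left out), HSP90AA1 in siACLY (-0.0447 to 0.014; 0.0353 with library totals alone and 0.0039 with at least 10 counts in every library), BAG3 between siSLC25A1 and siACLY (-0.071 to 0.0361) and HSP90AB1 between siSLC25A1 and siACO1 (-0.0491 to 0.0278; 2e-04 with median-of-ratios size factors and with DESeq2). Called list genes in siSLC25A1 numbered 14, and 9 to 20 with 1 library left out, the 9 without siSLC25A1 replicate 2. In siACLY they numbered 35, and 23 at an adjusted p under 0.01. Over all genes siSLC25A1 had 3173 calls, and 1941 at that threshold.

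Same-numbered libraries shared only a number: none of 18 pairs correlated above 0.1, and 8 of 18 correlated best with their own number. With the replicate block, members called between siSLC25A1 and siACO1 went from 4 to 6, by HSP90AA1 and HSPB1. All tested genes went from 3536 higher and 3287 lower to 3575 higher and 3318 lower in that comparison. Members called in siSLC25A1, siACLY and siACO1 against siControl stayed at 3, 4 and 5. The planned sum of HSPA1A and HSPA1B gave no value, since both are listed at 0.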
